A study of Homo sapiens with 5 samples.

Results

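The transcripts described here are 10 chaperone genes chosen by name: the HSP70 genes HSPA8, HSPA1A and HSPA1B, their partners HSPH1, DNAJB1 and BAG3, the HSP90 genes HSP90AA1 and HSP90AB1, and the mitochondrial pair HSPD1 and HSPE1. All 10 were among the 10626 genes of the deposited table, and all 10 passed the filter on low counts. They were measured by RNA sequencing in HAP1, an adherent, near-haploid human line derived from a chronic myeloid leukaemia, in a METAP1 knockout line (2 libraries) and in its wild type parent (3 libraries). The knockout was made with CRISPR/Cas9 and carries a 179 bp insertion in exon 4. The labels call it a METAP1 knockout and give a METAP1 transcript and a position on chromosome 4, but the same sentence also names METAP1D. It is read here as METAP1, which encodes a methionine aminopeptidase. Both lines came from 1 supplier and grew in the same serum-containing medium, and the labels name no stress treatment. The labels describe 1 edited line, so genotype cannot be told apart from clone. Every library is labelled a biological replicate, with no word on separate cultures, so p-values measure only the spread between these libraries.

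Chaperones bind unfolded or newly made proteins and help them to fold, and most are used by every cell at all times. HSP70 proteins grip short hydrophobic stretches in a cycle driven by ATP, which J-domain proteins such as DNAJB1 start and nucleotide exchange factors such as HSPH1 and BAG3 end. HSP90 acts later, on nearly folded clients such as kinases and steroid receptors, and HSPD1 with its lid HSPE1 folds proteins inside mitochondria. Many of these genes are induced by heat shock factor 1, encoded by HSF1, which binds promoter repeats of the unit nGAAn called heat shock elements. Methionine aminopeptidases clip the first methionine from new chains while these chains meet the same chaperones.

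The table held 13061232 and 12570051 reads for knockout libraries 3 and 2, numbered as in the table, and 13111303 to 16519292 for the wild type libraries. METAP1 itself had 748 and 611 normalized reads in knockout libraries 3 and 2, against 1868 to 1944 in wild type, so both knockout libraries carried less of the targeted transcript. Normalized reads are counts scaled to a common effective library size, the mean over the 5 libraries. Of 8 blood cell markers, KIT alone was among the tested genes (364 and 387 normalized reads in knockout libraries 3 and 2, against 253 to 258 in wild type). The summed level of 6 mesenchymal markers was 11831 and 11428 in knockout libraries 3 and 2 and 8978 to 10033 in wild type, with 3 called higher and 0 lower. That of 3 epithelial markers was 1875 and 1708 in knockout libraries 3 and 2 and 715 to 836 in wild type. Of these 3, 2 were called higher and 0 lower. Over all tested genes, 14.9% were called higher and 14.8% lower in the same comparison. The markers were uneven. VIM (log2 fold change 0.08), TWIST1 (0.44), ZEB1 (-0.16) and EPCAM (0.14) were not called. KRT8, with 967 and 921 normalized reads in knockout libraries 3 and 2 and 116 to 164 in wild type, made up most of the epithelial rise. The part of these shifts in the chaperone values was not tested. The 10 chaperone genes together took 0.580 and 0.801% of the table's reads in knockout libraries 3 and 2, and 0.904, 0.980 and 0.964% in wild type replicates 1, 2 and 3.

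For 6 of the genes, 1 promoter window that holds heat shock repeats is shown. They were picked because HSPA8, HSPA1A, HSPA1B and DNAJB1 were at least 2-fold lower in 1 knockout library than in the other. The HSP90 genes, which carry similar repeats in the window shown, were not. Each sequence is the 250 bases before a transcript start in RefSeq (GRCh38.p14), 5′ to 3′ on the gene's own strand, and capitals mark paired heat shock units, GAANNTTC or TTCNNGAA, each of which reads the same on both strands.
HSPA8 (chr11:123062137-123062386, reverse strand): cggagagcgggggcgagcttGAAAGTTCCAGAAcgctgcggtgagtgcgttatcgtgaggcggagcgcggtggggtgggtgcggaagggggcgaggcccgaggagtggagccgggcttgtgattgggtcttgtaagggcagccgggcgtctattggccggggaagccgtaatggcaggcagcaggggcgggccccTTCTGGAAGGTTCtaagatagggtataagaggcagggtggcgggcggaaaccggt
HSPA1A (chr6:31815293-31815542, forward strand): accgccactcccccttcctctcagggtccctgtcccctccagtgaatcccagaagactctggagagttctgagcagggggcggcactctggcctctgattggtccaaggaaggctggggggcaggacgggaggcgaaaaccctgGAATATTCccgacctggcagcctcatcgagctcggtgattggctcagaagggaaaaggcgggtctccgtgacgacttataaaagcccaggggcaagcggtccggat
HSPA1B (chr6:31827488-31827737, forward strand): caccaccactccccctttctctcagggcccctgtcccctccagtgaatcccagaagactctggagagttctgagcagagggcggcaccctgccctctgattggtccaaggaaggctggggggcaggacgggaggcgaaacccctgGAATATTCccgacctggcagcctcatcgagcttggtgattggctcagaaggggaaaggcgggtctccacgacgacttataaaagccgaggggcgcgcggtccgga
DNAJB1 (chr19:14518398-14518647, reverse strand): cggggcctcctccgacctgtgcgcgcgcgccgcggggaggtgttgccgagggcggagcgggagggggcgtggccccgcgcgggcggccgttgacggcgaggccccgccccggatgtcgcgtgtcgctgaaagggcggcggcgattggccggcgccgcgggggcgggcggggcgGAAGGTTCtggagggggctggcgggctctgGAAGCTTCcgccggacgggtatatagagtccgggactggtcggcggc
HSP90AA1 (chr14:102087045-102087294, reverse strand): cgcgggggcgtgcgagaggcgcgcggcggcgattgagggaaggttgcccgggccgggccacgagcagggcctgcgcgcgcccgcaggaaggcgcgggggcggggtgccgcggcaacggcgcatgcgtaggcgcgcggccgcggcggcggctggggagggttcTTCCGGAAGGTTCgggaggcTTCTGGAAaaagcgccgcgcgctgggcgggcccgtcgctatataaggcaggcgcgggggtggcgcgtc
HSP90AB1 (chr6:44247693-44247942, forward strand): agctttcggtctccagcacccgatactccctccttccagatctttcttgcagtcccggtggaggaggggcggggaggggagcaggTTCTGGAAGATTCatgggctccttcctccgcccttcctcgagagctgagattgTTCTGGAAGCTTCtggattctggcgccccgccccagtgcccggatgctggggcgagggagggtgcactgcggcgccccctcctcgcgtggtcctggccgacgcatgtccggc
HSPA8 and HSP90AB1 each held 4 such pairs in these windows, overlapping ones included, HSP90AA1 held 3, DNAJB1 2, and HSPA1A and HSPA1B 1 each. RefSeq gave 16 windows for the 10 genes, and 7 of the 16 (43.8%), each of another gene, held a pair, against 11.6% of all 35116 windows. Runs of 3 such units, GAA, TTC and GAA or TTC, GAA and TTC with 2 bases between neighbours, were found in 4 of the 16 windows (25.0%; HSPA8, HSP90AA1, HSP90AB1 and HSPD1) and in 0.441% of all windows. The windows of HSPH1, BAG3 and HSPE1 held no exact pair, and neither did the other windows of HSP90AB1, HSP90AA1, DNAJB1 and HSPD1. For HSP90AB1, the windows at 44245944 to 44246193 and 44246851 to 44247100, nearer the start of the gene than the window shown, held 0 pairs. A match of letters is not a bound site.

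Taking both knockout libraries together, the mitochondrial lid HSPE1 and the constitutive HSP90 gene HSP90AB1 fell, and the HSP70 exchange factor BAG3 rose. The BAG3 call lay close to the threshold. The largest differences were elsewhere, in 1 knockout library. Knockout library 3 had 20.4% of the mean wild type level of HSPA8, 27.2% of HSPA1A and 28.8% of HSPA1B, whereas knockout library 2 lay within the wild type range for both HSPA1 genes. The knockout libraries were compared with wild type both together and on their own. In the comparison of both, 2 of 10 genes were called lower and 1 higher. Calls are by edgeR's quasi-likelihood test at a Benjamini-Hochberg adjusted p under 0.05. In this comparison 29.7% of all 10620 tested genes were called (14.8% lower and 14.9% higher). With both directions counted together, the share of the 10 called is thus close to the background. Library 3 alone gave 7 lower and 0 higher of the 10, with 11.1% of all tested genes called (5.24% lower and 5.86% higher). Library 2 alone gave 0 in either direction, with 12.4% of all tested genes called (5.8% lower and 6.65% higher). Without wild type replicate 1 it gave 3 lower and 1 higher, but 32.7% of all tested genes were then called (16.1% lower and 16.6% higher). At an unadjusted p under 0.05 the edgeR counts were 7 lower and 0 higher for library 3, where 14.7% of all tested genes were lower and 14.9% higher. For library 2 they were 3 lower and 1 higher, where 15.1% of all tested genes were lower and 15.8% higher. These comparisons share the wild type libraries, and those with a lone knockout library take their spread from wild type alone, assuming that the lone library varies alike.

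**Figure D1:**
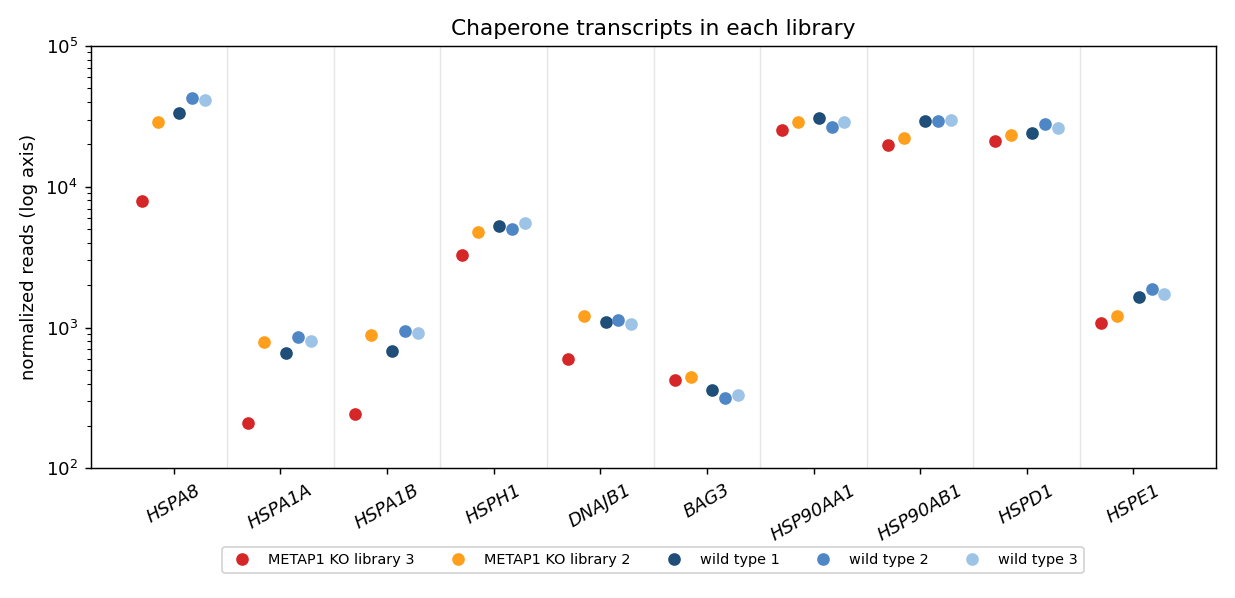
Normalized reads (log axis) of the 10 chaperone genes, with 1 point for each of METAP1 knockout libraries 3 and 2 and wild type replicates 1 to 3. Library 3 stands apart for HSPA8 (7963), HSPA1A (211), HSPA1B (244) and DNAJB1 (601), while both knockout libraries lie below wild type for HSP90AB1 and HSPE1 and above it for BAG3.

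HSPA8, the HSP70 of unstressed cells (chromosome 11, 123057489 to 123063230 on the reverse strand, GRCh38 in GENCODE release 29), had 7963 and 28657 normalized reads in knockout libraries 3 and 2. Wild type replicates 1, 2 and 3 had 33404, 42440 and 41355. Both knockout libraries were below every wild type library, but library 3 stood at 20.4% of the wild type mean and library 2 at 73.4%. The log2 fold change against wild type was -2.29 for library 3 (SE 0.202, adjusted p = 0.00230, edgeR quasi-likelihood, Benjamini-Hochberg) and -0.45 for library 2 (SE 0.179, adjusted p = 0.147). With both together it was -1.09 (SE 0.458, adjusted p = 0.110) and HSPA8 was not called. Without wild type replicate 1, library 2 alone was called lower (-0.56, adjusted p = 0.00486, the same edgeR test). HSPA8 took 0.0576% of the table's reads in library 3 and 0.205% in library 2, against 0.237 to 0.305% in wild type.

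HSPA1A and HSPA1B, neighbouring genes on chromosome 6 (31815464 to 31817946 and 31827735 to 31830255, forward strand), encode the HSP70 that cells make under stress. HSPA1A had 211 and 788 normalized reads in knockout libraries 3 and 2, against 665, 856 and 802 in wild type replicates 1 to 3. HSPA1B had 244 and 884 in knockout libraries 3 and 2, against 677, 945 and 922 in wild type replicates 1 to 3. For both genes library 2 lay within the wild type range and library 3 below it. The log2 fold changes of library 3 were -1.88 (SE 0.212) for HSPA1A and -1.80 (SE 0.247) for HSPA1B, and their adjusted p was 0.00495 and 0.00926 (edgeR quasi-likelihood, Benjamini-Hochberg). Library 2 gave 0.02 (SE 0.182) and 0.06 (SE 0.214), at an adjusted p of 0.943 for HSPA1A and 0.878 for HSPA1B by edgeR. These 2 genes cannot be counted apart with certainty: of all 75-base windows of HSPA1A transcripts, the read length used, 69.3% also occur in HSPA1B. The sum of both was 455 and 1672 normalized reads in knockout libraries 3 and 2 and 1343, 1801 and 1724 in wild type replicates 1 to 3.

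The ratio within the HSP70 genes was alike in both knockout libraries although their levels were not. Per kilobase of gene length, HSPA8 stood at 10.1 and 9.85 times the summed level of HSPA1A and HSPA1B in knockout libraries 3 and 2. In wild type replicates 1, 2 and 3 that ratio was 14.3, 13.5 and 13.8. The knockout libraries thus lay below all wild type libraries in this ratio and close to each other. It was chosen after the values were seen and is given without a test. The size of this ratio is uncertain, because HSPA1A and HSPA1B share most of their 75-base windows.

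DNAJB1, the J-domain protein that hands clients to HSP70 after heat shock (chromosome 19, 14514770 to 14529770, reverse strand), had 601 and 1205 normalized reads in knockout libraries 3 and 2. Wild type replicates 1 to 3 had 1097, 1125 and 1066. Library 3 was below and library 2 above every wild type library. The log2 fold changes were -0.87 for library 3 (SE 0.137, adjusted p = 0.0148) and 0.14 for library 2 (SE 0.128, adjusted p = 0.502) in edgeR quasi-likelihood with Benjamini-Hochberg. With both together the value was -0.28 (SE 0.251, adjusted p = 0.426, the same edgeR test), and it took the sign of library 2, 0.14, without library 3.

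HSPH1, the large HSP70 relative also known as HSP110, which acts as an exchange factor and holdase (chromosome 13, 31134974 to 31162388, reverse strand), had 3268 and 4760 normalized reads in knockout libraries 3 and 2. Wild type replicates 1 to 3 had 5236, 5025 and 5550. Both knockout libraries were below wild type, library 3 at 62.0% and library 2 at 90.3% of the wild type mean. The log2 fold change was -0.69 for library 3 (SE 0.134, adjusted p = 0.0265), -0.15 for library 2 (SE 0.129, adjusted p = 0.476) and -0.39 for both (SE 0.153, adjusted p = 0.0872) in edgeR quasi-likelihood with Benjamini-Hochberg. The call for library 3 was lost without wild type replicate 3 (adjusted p = 0.118, the same edgeR test).

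BAG3, a co-chaperone that links HSP70 to selective autophagy (chromosome 10, 119651370 to 119677819, forward strand), went the other way. It had 425 and 450 normalized reads in knockout libraries 3 and 2, against 359, 314 and 331 in wild type replicates 1 to 3. Both knockout libraries were above every wild type library, by 1.31-fold on the means. The log2 fold change was 0.39 with both libraries (SE 0.123, adjusted p = 0.0449), 0.35 with library 3 (SE 0.162, adjusted p = 0.210) and 0.43 with library 2 (SE 0.162, adjusted p = 0.131), by edgeR quasi-likelihood with Benjamini-Hochberg. The call lay close to the threshold and was lost when either knockout library or wild type replicate 2 or 3 was left out.

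**Figure D2:**
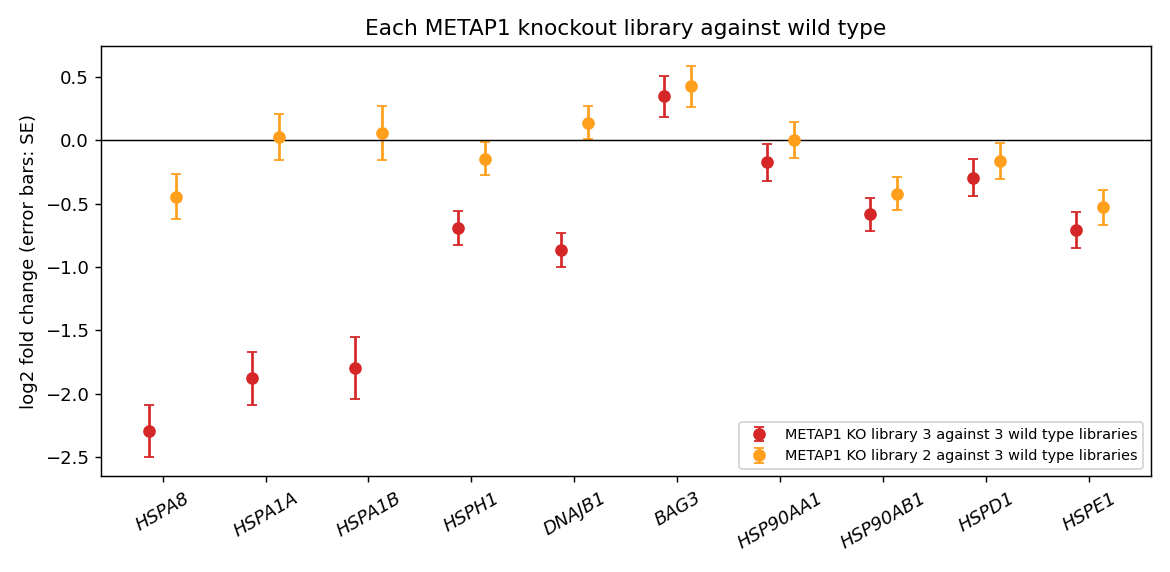
Log2 fold change of each METAP1 knockout library, 3 and then 2, against the 3 wild type libraries for the 10 chaperone genes, with standard errors as bars. HSPA8, HSPA1A, HSPA1B, DNAJB1 and HSPH1 ran from -2.29 to -0.69 in library 3 and from -0.45 to 0.14 in library 2, while HSP90AB1, HSPE1, HSPD1 and BAG3 had similar values in both libraries.

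Of the cytosolic HSP90 genes, HSP90AB1, the constitutive form, fell and HSP90AA1, the more heat-inducible form, did not pass the test. HSP90AB1 (chromosome 6, 44246166 to 44253888, forward strand) had 19690 and 22059 normalized reads in knockout libraries 3 and 2, against 29294, 29417 and 29898 in wild type replicates 1 to 3. The 3 wild type values differed by 1.02-fold at most, and both knockout libraries lay below them. The log2 fold change was -0.50 (SE 0.0926, adjusted p = 0.00548, edgeR quasi-likelihood, Benjamini-Hochberg), with -0.59 for library 3 (SE 0.131, adjusted p = 0.0391) and -0.42 for library 2 (SE 0.130, adjusted p = 0.0827) in the same edgeR test. Without knockout library 3, which leaves the comparison of library 2 just given, the call was lost. The call for library 3 alone was lost without wild type replicate 3.

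HSP90AA1 (chromosome 14, 102080738 to 102139699, reverse strand) had 25403 and 28716 normalized reads in knockout libraries 3 and 2. Wild type replicates 1 to 3 had 30738, 26750 and 28617, so library 2 fell inside the wild type range and library 3 just under it. Its log2 fold change was -0.09 with both (SE 0.103, adjusted p = 0.558, edgeR quasi-likelihood, Benjamini-Hochberg). Per kilobase, HSP90AA1 stood at 0.707 and 0.714 of HSP90AB1 in knockout libraries 3 and 2, and at 0.575, 0.498 and 0.525 in wild type replicates 1 to 3. The knockout ratios were above all wild type ratios. This ratio too was chosen after the values were seen.

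HSPE1 and HSPD1 encode the mitochondrial HSP10 lid and the HSP60 barrel and are transcribed in opposite directions from 1 region of chromosome 2 (197499994 to 197503457, forward strand, and 197486581 to 197516737, reverse strand). HSPE1 had 1074 and 1214 normalized reads in knockout libraries 3 and 2, against 1651, 1889 and 1722 in wild type replicates 1 to 3. Its log2 fold change was -0.62 (SE 0.107, adjusted p = 0.00397, edgeR quasi-likelihood, Benjamini-Hochberg), with -0.71 for library 3 (SE 0.141, adjusted p = 0.0286) and -0.53 for library 2 (SE 0.140, adjusted p = 0.0555) in the same edgeR test. Both knockout libraries were clear of wild type and the call was lost without library 3.

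HSPD1 had 21248 and 23298 normalized reads in knockout libraries 3 and 2 and 24234, 27779 and 26212 in wild type replicates 1 to 3. The groups did not overlap, but the difference was smaller than for its partner: -0.23 on the log2 scale (SE 0.0992, adjusted p = 0.115, edgeR quasi-likelihood, Benjamini-Hochberg). It was called without wild type replicate 1 (adjusted p = 0.0154, the same edgeR test). In that setting 4591 of all tested genes were called, against 3150 with all libraries. Per kilobase, HSPD1 stood at 8.19 and 7.95 times HSPE1 in knockout libraries 3 and 2, and at 6.08, 6.09 and 6.30 times in wild type replicates 1 to 3. The level of HSPE1 is uncertain, because 35.03% of its 75-base windows also occur in transcripts of other genes on either strand, 17.3% in HSPD1 and 10.8% in the read-through gene HSPE1-MOB4. The share was 12.5% for HSPD1, 8.11% for HSP90AA1, 4.68% for HSP90AB1, 4.41% for DNAJB1 and 1.57% for HSPA8, and it was 0 for HSPH1 and BAG3.

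Across the 10 genes, the groups did not overlap in 6, 5 lower and 1 higher in the knockout, where 59.3% of all tested genes had such a gap, 29.2% lower and 30.1% higher. The share is thus close to the background. The median log2 fold change of the 10 was -0.45, against 0.01 over all tested genes. It was -0.70 for library 3 and -0.07 for library 2, each against 0.00 over all tested genes. Library 3 was below every wild type library for 9 of the 10 genes, where 35.8% of all genes were, and above for 1, where 37.2% were. Library 2 was below for 5, where 36.2% of all genes were, and above for 2, where 37.3% were.

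Between the 2 knockout libraries, the HSP70 genes showed the widest gaps of all tested genes on the low side. Out of 10620 tested genes ordered by the log2 difference of library 3 minus library 2, HSPA1A (-1.90), HSPA1B (-1.85) and HSPA8 (-1.85) were the lowest 3. DNAJB1 (2.01-fold lower in library 3) came 14th and HSPH1 (-0.54) 163rd. At least a 2-fold lower level in library 3 was found for 4 of the 10 genes and for 0.132% of all tested genes (14 genes), and 0.16% were at least 2-fold higher. HSPE1 (-0.18), HSP90AA1 (-0.18), HSP90AB1 (-0.16), HSPD1 (-0.13) and BAG3 (-0.08) differed little, and all 5 lay within the middle 90% of all genes (-0.36 to 0.35). All 10 were lower in library 3, as were 50.7% of all genes. With 1 library on each side there is no test of this difference.

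**Figure D3:**
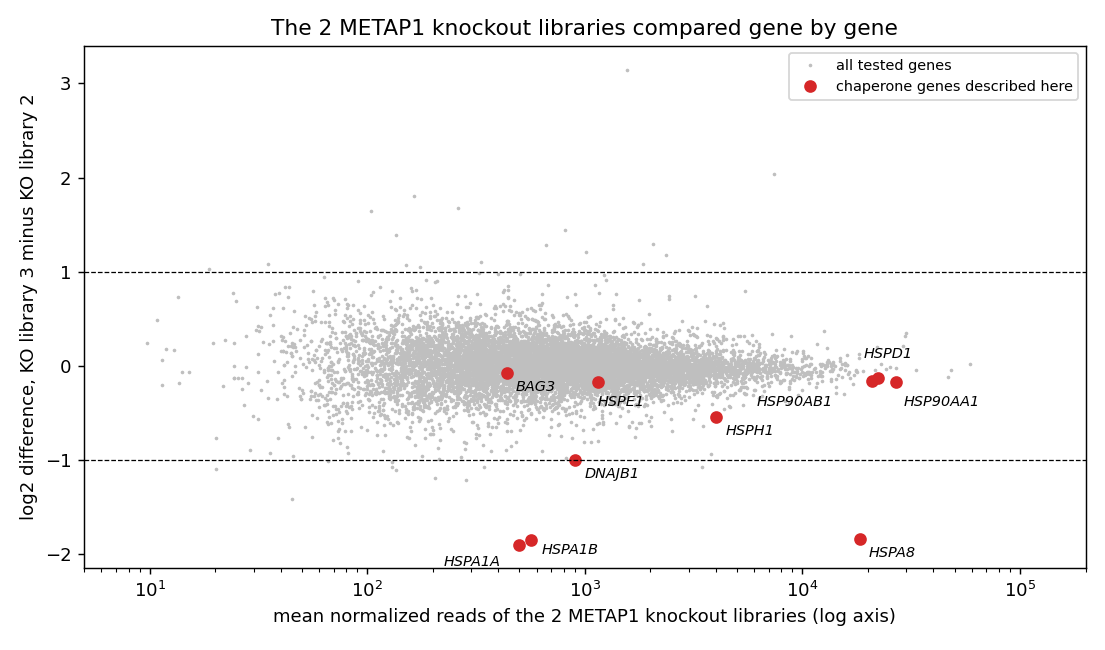
Log2 difference of METAP1 knockout library 3 minus library 2 for each of the 10620 tested genes (grey), against their mean normalized reads in these libraries (log axis), with the 10 chaperone genes in red and dashed lines at a 2-fold difference. HSPA1A, HSPA1B and HSPA8 lie lowest of all genes, near -1.9, whereas the HSP90 genes, HSPD1, HSPE1 and BAG3 lie close to 0.

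The genes also differed in level, compared per kilobase of the authors' gene length. In wild type, HSP90AB1 had the highest level (10564 ± 114 normalized reads per kilobase, SD, n = 3), followed by HSPA8 (9058 ± 1144), HSPD1 (6799 ± 463), HSP90AA1 (5627 ± 391), HSPH1 (1409 ± 70.6) and HSPE1 (1105 ± 77.0). HSPA1B (337 ± 58.9), HSPA1A (318 ± 40.3) and DNAJB1 (316 ± 8.55) did not differ beyond their spread, and BAG3 was lowest (122 ± 8.20). In knockout library 3, HSPA8 stood at 1846 normalized reads per kilobase, below HSP90AB1 (7042), HSPD1 (5541) and HSP90AA1 (4980). In that library BAG3 (155) was above HSPA1B (97.0) and HSPA1A (86.5). Of the 75-base windows of HSPA1A and HSPA1B, 69.3 and 73.2% also occur in other genes, against 0 for BAG3. The levels of HSPA1A and HSPA1B per kilobase, and their order against BAG3 and the other genes, are therefore uncertain. In library 2, HSPA8 (6644) came next after HSP90AB1 (7889).

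Lists of other chaperone genes are read against the same background for both knockout libraries together, 14.8% of all tested genes called lower and 14.9% higher by edgeR at an adjusted p under 0.05, and 21.1% lower and 22% higher at an unadjusted p. Of 6 other HSP70 family genes tested, 1 fell and 0 rose in the knockout (1 lower and 1 higher at an unadjusted p, 1 and 0 by DESeq2). It was HSPA4L, an HSP110 relative, with 2834 and 2856 normalized reads in knockout libraries 3 and 2 and 4335, 3867 and 4113 in wild type (log2 fold change -0.53, SE 0.0931). Of 20 J-domain genes, 1 fell and 0 rose (2 lower and 2 higher at an unadjusted p, 1 and 0 by DESeq2), which is below the share over all genes. The gene was DNAJC2, a ribosome-bound partner of HSP70, at -0.60 (SE 0.0935). Of 9 exchange factors and other HSP70 regulators, 1 fell and 0 rose (2 lower and 1 higher at an unadjusted p, 1 and 0 by DESeq2): BAG1 had 315 and 274 normalized reads in knockout libraries 3 and 2 and 729, 572 and 559 in wild type, a log2 fold change of -1.07 (SE 0.159). The medians of the 3 lists were -0.04, -0.04 and -0.08.

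Of 18 HSP90 cochaperone genes, 5 fell and 0 rose (7 lower and 0 higher at an unadjusted p, 5 and 0 by DESeq2), with a median of -0.22. With both directions counted together, that share is close to the 29.7% called over all tested genes. By direction, 5 of 18 lower is above the 14.8% called lower over all tested genes. The 0 higher is below the 14.9% called higher. NUDCD2 (-0.64, SE 0.115) and NUDC (-0.46, SE 0.0902), both of the NudC family of HSP90 partners, and the phosphatase gene PPP5C (-0.60, SE 0.0960), whose product docks on HSP90, fell. Of 18 other mitochondrial chaperone and protease genes, 2 fell and 0 rose (4 lower and 0 higher at an unadjusted p, 2 and 0 by DESeq2), with a median of -0.13. This share is no larger than the 14.8% called lower over all tested genes. These were GRPEL1, the exchange factor of mitochondrial HSP70 (-0.50, SE 0.119), and AFG3L2, a subunit of an inner membrane protease (-0.37, SE 0.100). Neither of the 2 small heat shock proteins tested was called (0 at an unadjusted p and 0 by DESeq2), and HSPB1 had a log2 fold change of -0.04 (SE 0.144).

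HSF1 transcripts rose, with 1075 and 1143 normalized reads in knockout libraries 3 and 2, against 865, 889 and 717 in wild type replicates 1 to 3 (log2 fold change 0.43, SE 0.121, adjusted p = 0.0299, edgeR quasi-likelihood, Benjamini-Hochberg). It was the 1 called of 3 heat shock factor and regulator genes. On its own, library 3 gave a log2 fold change of 0.38 and library 2 gave 0.47. HSF1 was not called in either knockout library on its own, so the call needed both. The HSF1 call was not rerun with a wild type library left out. Among 16 other genes known as heat shock factor targets, 3 fell and 1 rose, with a median of -0.13, a share close to the 29.7% called over all tested genes. SERPINH1, the collagen chaperone of the endoplasmic reticulum, rose (0.59, SE 0.128), and the mitochondrial ribosomal gene MRPL18 (-0.48, SE 0.0960) and HSPA4L, counted above, fell. In library 3 alone, 2 of the 16 were called lower and 0 higher, against 5.24% lower and 5.86% higher over all tested genes (6 lower and 1 higher at an unadjusted p). They were MRPL18 and DNAJA1, an HSP70 partner named here after its values were seen, which had 2613 and 5025 normalized reads in knockout libraries 3 and 2 and 5222, 5653 and 5700 in wild type. Library 3 was below library 2 in 14 of these 16 genes, against 50.7% of all tested genes. The median difference was -0.17, against -0.004 over all tested genes.

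**Figure D4:**
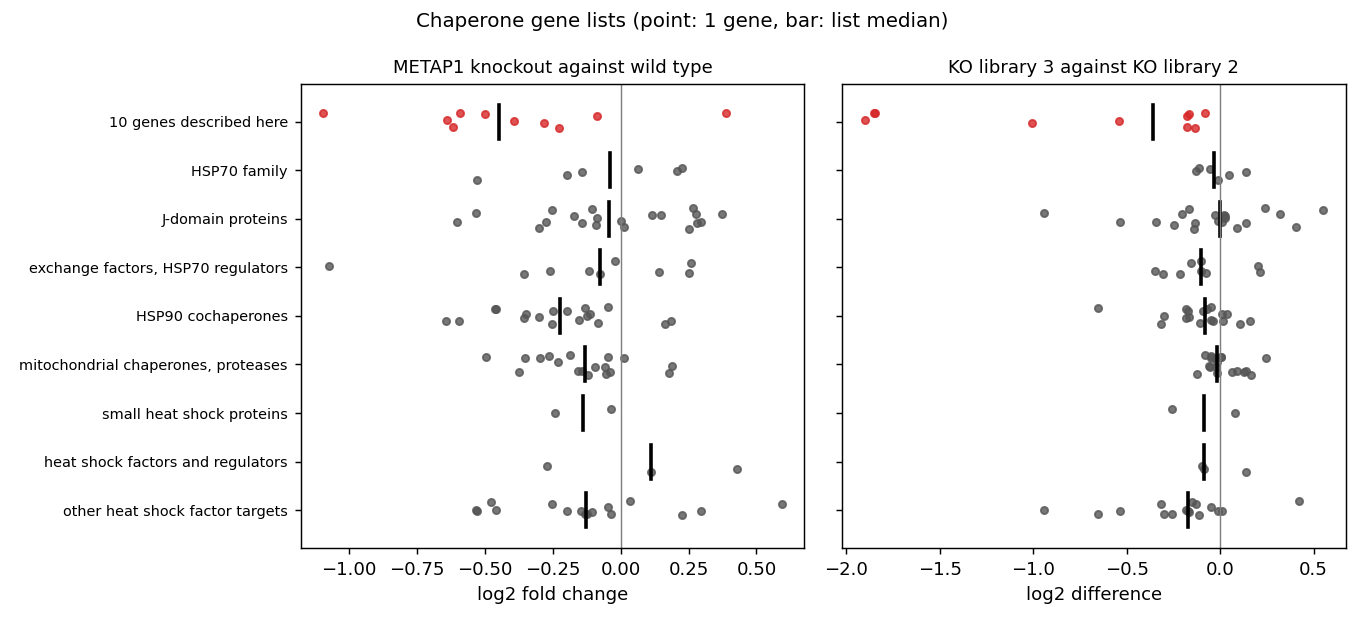
Log2 fold change of METAP1 knockout against wild type (left) and log2 difference of knockout library 3 minus library 2 (right) for the tested genes of each chaperone list, with 1 point a gene and a bar at the list median. The 10 chaperone genes (red) reach -1.09 on the left and -1.90 on the right, and the other lists have medians between -0.22 and 0.11 on the left and between -0.17 and 0.00 on the right.

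Immediate early genes, which respond within minutes to handling or a change of medium, varied between libraries as well. Their summed level over 11 tested genes was 11890 and 15037 normalized reads in knockout libraries 3 and 2, and 17360, 11643 and 9253 in wild type replicates 1 to 3. MYC was the largest part of this sum, with 7245 and 9423 in knockout libraries 3 and 2 and 8068, 4114 and 4937 in wild type replicates 1 to 3. Of the 11, 2 fell and 0 rose in the knockout (4 lower and 0 higher at an unadjusted p, 3 and 0 by DESeq2), against 14.8% lower and 14.9% higher over all tested genes, while the median of the list was 0.32. The called genes were FOSB (-1.99, SE 0.352) and FOS (-1.34, SE 0.362). Library 3 was lower than library 2 in 8 of the 11, against 50.7% of all tested genes. The median difference was -0.38, against -0.004 over all tested genes. At least 2-fold lower were 0 of the 11, against 0.132% of all tested genes. The part of the immediate early genes in the chaperone results was not tested. The authors' deposited table, which pools both knockout libraries, gave log2 fold changes of -0.61 for HSPA8 (adjusted p = 0.160), -0.49 for HSP90AB1 (1.90e-05), -0.60 for HSPE1 (2.81e-05) and 0.36 for BAG3 (0.0426). For HSPA8, DESeq2 run here gave -1.10 (SE 0.600, adjusted p = 0.152), whereas the authors' SE was 0.340. The authors' fold changes may thus not be on the same scale as those given here.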

How the data were processed

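Per the labels' protocols, a stranded kit with removal of ribosomal RNA was used on total RNA, and reads were single-end and 75 bases long. Tools named in the submitters' processing notes, without roles, are HTSeq, DESeq2 and STAR 2.4.0i, with builds hg19 and GRCh37. No strand setting for counting was found in these sources. The authors deposited 1 table with raw read counts per gene and library, a union gene length, and their own log2 fold changes with standard errors, p-values and adjusted p-values. Its 5 other columns of per-sample values were not used. The knockout columns, numbered 2 and 3, could not be tied to single sample titles and were used as knockout libraries.

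Counts were analysed with edgeR 4.0.16 (R 4.3.3): filterByExpr (6 genes removed), TMM, and a 2-sided robust quasi-likelihood F-test over all 5 libraries, without covariates. A second fit gave each knockout library its own group. The Benjamini-Hochberg adjustment ran over 10620 genes, with calls under 0.05. Residual degrees of freedom were 3 and 2, and standard errors were derived from the F statistic. Named were all 10 genes, METAP1 and, from each list, the called genes of lowest adjusted p (3 at most), or else the most abundant gene. The members and lists were chosen with earlier results of these data known. The steps were tested on simulated counts. Alternatives were median-of-ratios size factors, no TMM, a minimum mean of 50 counts or no filter at all, DESeq2 1.42.0, limma-voom (limma 3.58.1), removal of the gene length trend (lowess, span 0.3), a replicate block and each library left out. Positions are from GENCODE release 29 (GRCh38), and none was converted between builds. Shared 75-base windows were counted over GENCODE transcripts, both strands, with Python 3.11.15.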

Additional observations from a re-analysis of the deposited data

How the results depend on the processing

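With a library left out, the number of genes called over the transcriptome ran from 1179 to 4591, against 3150 with all libraries, and 4356 with a replicate block by column number. Of the 10 chaperone genes, 0 to 7 were called with a library left out for both knockout libraries together (0 without library 3, 7 without library 2), 0 to 4 for knockout library 2 alone (4 without wild type replicate 1) and 5 to 8 for library 3 alone. The replicate block called 4 of the 10, HSPD1 being added at an adjusted p of 0.0166. The numbers do not show pairing: deviations of same-numbered libraries correlated at 0.0305 (number 2) and -0.0042 (number 3). With 2 knockout libraries, the deviations of 1 are those of the other with the sign turned. These 2 values are therefore not independent checks.

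The direction for both knockout libraries together turned in 4 genes, which with a library left out ran from -0.87 to 0.14 (DNAJB1), -0.18 to 0.00084 (HSP90AA1), -1.88 to 0.024 (HSPA1A) and -1.80 to 0.058 (HSPA1B). Each turned without library 3. Leaving out 1 knockout library repeats the comparison of the other one with wild type, so it is not a further check. For library 2 alone, values near 0 changed sign: HSP90AA1 at -0.0025 with median-of-ratios size factors and -0.055 with the length trend removed, and with a library left out HSP90AA1 (-0.048 to 0.037), HSPA1A (-0.089 to 0.10) and HSPA1B (-0.095 to 0.14). For library 3 alone, no gene changed sign under the settings run, and HSPA8 ran from -2.41 to -2.23. With HSPA1A and HSPA1B summed, the pooled count was 3. The lowest count among these genes was 199 reads (HSPA1A in library 3), and there are 2 knockout libraries.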

Other observations

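The other genes that separated the 2 knockout libraries were few. Among 10224 genes with at least 100 normalized reads in the higher of these libraries, 11 were at least 2-fold lower in library 3 and 15 at least 2-fold higher. Of the 11, 4 were chaperone genes (HSPA1A, HSPA1B, HSPA8 and DNAJB1), and 0 of the 15 were on a chaperone list. The genes below were chosen after their values were seen and have no test. CDKN1A, a cell cycle inhibitor gene, had 2813 and 317 normalized reads in knockout libraries 3 and 2, and 1566, 309 and 379 in wild type replicates 1 to 3. MDM2, a ubiquitin ligase gene, had 11921 and 2911 in knockout libraries 3 and 2, and 10511, 3381 and 3982 in wild type replicates 1 to 3. Both genes were thus high in knockout library 3 and in wild type replicate 1. That wild type replicate also had the lowest wild type level of HSPA8, HSPA1A and HSPA1B (33404, 665 and 677), well above those of knockout library 3 (7963, 211 and 244). It was lowest of wild type for HSP90AB1, HSPD1 and HSPE1 too. It lay between the other wild type libraries for DNAJB1 (1097) and HSPH1 (5236), and was highest for HSP90AA1 (30738) and BAG3 (359). A link between these patterns was not tested. Among 458 genes with at least 5000 normalized reads in the higher knockout library, HSPA8 and MDM2 were the 2 that differed at least 2-fold. TXNIP, which encodes a thioredoxin-binding protein, was 2222 and 4701 in knockout libraries 3 and 2, against 1011, 1169 and 1063 in wild type replicates 1 to 3.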
